A study of Mus musculus with 10 samples.

Results

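The genes described here are 9 that hold the mouse oocyte in meiotic arrest or release it, out of 18493 genes in the deposited count table. They were taken by gene symbol: the receptors Gpr3 and Gpr12, the stimulatory G protein subunit gene Gnas, the adenylyl cyclase gene Adcy3, the phosphodiesterase gene Pde3a, the inhibitory CDK1 kinase genes Wee2 and Pkmyt1, the CDK1 phosphatase gene Cdc25b, and the kinase gene Mos. All 9 were present in the table. The libraries were made from mouse germ cells labelled Oocyte, from Ovary, by SMART-seq2, a method that primes reverse transcription at the poly(A) tail and amplifies the resulting cDNA. By the series' title and design text, the question was how the transcripts of oocytes from young and aged females differ, and how those of a group given spermidine, a polyamine metabolite, compare with both.

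The group titled Young (3 libraries) has the treatment label Control, the group titled Aged (3 libraries) has Treatment, and the group titled Spermidine (4 libraries) has Rescue. The labels name no strain, genotype, age, dose or route, and do not say whether the oocytes were arrested in prophase or had resumed meiosis, nor how many oocytes or animals went into a library. From the word Rescue and the design text, the spermidine group was read as oocytes of aged females given spermidine. Since nothing states that replicates came from separate animals, the p-values measure only the spread between these libraries, which may be technical.

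A fully grown oocyte waits in prophase of the first meiotic division because its own cAMP stays high. GPR3 and the related receptors GPR6 and GPR12 signal through the stimulatory G protein, which carries the alpha subunit encoded by Gnas, to adenylyl cyclases such as ADCY3, and cAMP keeps protein kinase A active. Cyclic GMP from the surrounding follicle cells holds the phosphodiesterase PDE3A in check, and when that inhibition ends PDE3A degrades cAMP. Protein kinase A activates the oocyte kinase WEE2 and restrains the phosphatase CDC25B, so that CDK1 stays phosphorylated and inactive. PKMYT1 is the membrane-bound kinase of the same CDK1 site, and MOS starts the MAP kinase pathway that later holds the egg at metaphase.

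The kinases and the phosphatase of the set act on neighbouring threonine and tyrosine residues of CDK1. The stretch of Cdk1 that encodes them is shown because 3 of the 9 genes (Wee2, Pkmyt1 and Cdc25b) work on it. It covers codons 10 to 19, 30 bases of coding sequence in the GENCODE M21 principal transcript, with the codons of threonine 14 and tyrosine 15 in capitals. These 2 codons lie in exon 3, on the minus strand of chr10:69346224-69346229 (GRCm38).
Cdk1 codons 10 to 19: attggagaaggtACTTACggtgtggtgtat

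Gpr3 and Cdc25b RNA rose in aged oocytes, by 2.20-fold and 1.87-fold over young, and Gpr3 was lower again in the spermidine group, where its mean was 1.95-fold below aged. These are the transcripts of the receptor that drives cAMP synthesis and of the phosphatase that releases CDK1, and protein was not measured. The call for lower Gpr3 with spermidine was lost under 9 of 22 alternative settings or sets of libraries. Wee2 and Mos were the abundant members and spread widely within the aged and spermidine groups. Their lower means with spermidine did not pass the test, although Wee2 passed under 8 of the 22 alternatives and Mos under 1. Gpr12 and Adcy3 were near the detection limit in every library.

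Library totals were 24222185 to 28730790 counts, and 15326 to 15711 genes had a count. All 11 oocyte markers were detected in each group. Their summed levels were 26640 to 29125 CPM in young, 26219 to 33726 CPM in aged and 17744 to 34907 CPM in spermidine libraries. CPM is the count of a gene per library size after TMM scaling. The lowest sum was that of spermidine replicate 1, where Wee2 (328 CPM) and Mos (518 CPM) were at their lowest as well. Whether these go together was not tested. The 10 granulosa and cumulus markers together reached 18.4 to 25.4 CPM, with Amh at 0 in the young and aged groups. Cyp19a1 was the highest of them in every library, at 8.81 to 16.7 CPM. The 6 theca and stromal markers together reached 1.42 to 3.45 CPM. Blood and immune markers together ran from 1.08 to 28.0 CPM in young, 0.682 to 12.6 CPM in aged and 0.729 to 1.27 CPM in spermidine libraries. The deviation of genes rose with transcript length in aged replicate 1 (r = 0.41 across genes) and, less, in spermidine replicate 1 (0.14). The other 8 libraries ran from -0.21 to 0.07, with the opposite trend in young replicate 1 (-0.21) and spermidine replicate 3 (-0.15), among others. The deviation rose with GC content in aged replicates 2 (0.26) and 3 (0.38). The other 8 libraries ran from -0.26 to 0.20, with the opposite trend in young replicate 3 (-0.26) and spermidine replicate 2 (-0.20), among others. The part of these trends in the results was not tested, beyond the values with a correction for length and GC content given with them. In such bulk libraries, fewer cells of a type and less RNA per cell cannot be told apart. Poly(A) tail length was not measured.

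Per length of transcript, the members ranged from among the most abundant genes of the oocyte to barely detected. On a TPM-like scale computed from counts and the GENCODE principal transcript, Mos stood at 1092 ± 40.5 in young oocytes (SD, n = 3) and ranked 133 of 17724 genes by its mean over all libraries. Wee2 stood at 363 ± 14.2 and ranked 328. Both belong to the RNA that a growing oocyte stores. Gnas came next with 27.1 ± 2.24. The level of Gnas depends on the transcript chosen, since the locus makes several long forms, and its overlapping and antisense transcripts cannot be told apart without strand information, which the sources used here do not give. Pde3a (4.65 ± 0.568), Cdc25b (4.41 ± 0.646), Gpr3 (3.94 ± 0.652) and Pkmyt1 (3.65 ± 1.75) did not differ from their neighbours in this order beyond their spread. Gpr12 at 0.190 ± 0.0193 and Adcy3 at 0.0887 ± 0.0255 were the lowest. For scale, Ccnb1, the cyclin partner of CDK1, stood at 1715 ± 59.1 and Cdk1 itself at 45.7 ± 1.72.

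Gpr3 (Gene ID 14748) encodes the constitutively active receptor that keeps oocyte cAMP high. Its level was 4.98, 6.18 and 5.56 CPM in the young libraries, 10.1, 12.5 and 14.2 CPM in the aged libraries, and 5.23, 5.22, 5.71 and 9.05 CPM in the spermidine libraries. Every aged library lay above every young and every spermidine library, while young and spermidine overlapped, and spermidine replicate 4 lay closest to the aged group. The group means were 5.57 ± 0.600, 12.3 ± 2.09 and 6.30 ± 1.85 CPM (SD, n = 3, 3 and 4). Aged minus young was 1.14 on the log2 scale (SE 0.24, adjusted p = 0.00908, edgeR quasi-likelihood test with Benjamini-Hochberg adjustment over 12315 genes). The call was lost without young replicate 1, where the difference was 1.03 (edgeR adjusted p = 0.0548). With the correction for length and GC content it was 0.94 (edgeR adjusted p = 0.00291).

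Spermidine minus aged for Gpr3 was -0.96 (SE 0.22, edgeR adjusted p = 0.0325), and spermidine minus young was 0.18 (SE 0.23, edgeR adjusted p = 0.710). The comparisons of aged with young and of spermidine with aged share the 3 aged libraries. The lower level with spermidine kept its direction under all 22 alternatives, with differences of -1.19 to -0.81. It missed the threshold under 9 of them. Leaving out young replicates 1 or 3 gave edgeR adjusted p-values of 0.0546 and 0.0568, and leaving out aged replicates 2 or 3 gave 0.0954 and 0.101. Leaving out spermidine replicates 1, 2 or 3 gave 0.0543, 0.104 and 0.0880. Scaling by total counts gave 0.0528, and a fit of only the 2 groups compared gave 0.0828. Without spermidine replicate 4 the difference was -1.19 (edgeR adjusted p = 0.00661). The authors' deposited table gives Gpr3 a log2 fold change of 1.10 for aged over young (q = 6.56e-05) and -0.98 for spermidine over aged (q = 0.00931).

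**Figure D1:**
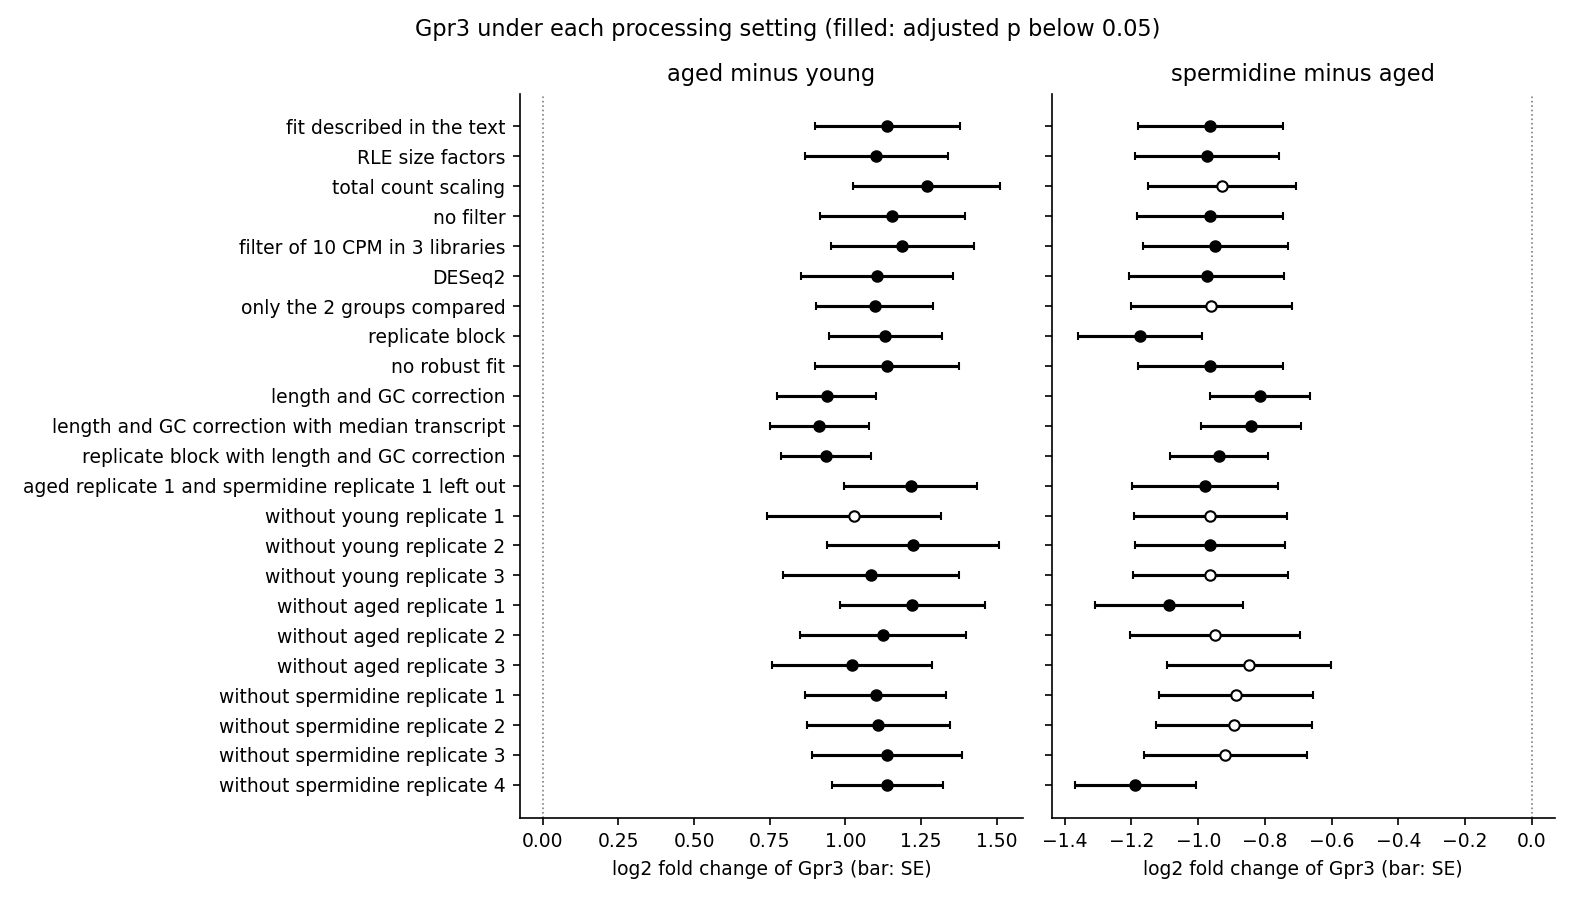
The log2 difference of Gpr3 for aged minus young and for spermidine minus aged under each processing setting, with the SE as a bar and filled points where the adjusted p was below 0.05. All values for aged minus young lie between 0.91 and 1.27 and all for spermidine minus aged between -1.19 and -0.81, while 9 open points on the right mark settings in which the second call was lost.

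Gpr12 (Gene ID 14738), the related receptor that dominates in rat oocytes, had 6, 6 and 5 counts in the young libraries, 5, 2 and 5 in the aged, and 8, 5, 5 and 5 in the spermidine libraries. Too few reads carried it for the filter on low counts, so it was not tested. Fitted with no filter, aged minus young was -0.70 (SE 0.58, edgeR adjusted p = 0.487) and spermidine minus aged was 0.51 (SE 0.54, edgeR adjusted p = 0.636), so no difference was detectable at this depth. Gpr6, the other receptor of the family, had 1 count in all, in young replicate 2. Of the 3 receptor genes, Gpr3 was thus the one with enough counts for a test.

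Gnas (Gene ID 14683) encodes the stimulatory alpha subunit that couples these receptors to adenylyl cyclase. Its level was 61.2, 60.9 and 56.5 CPM in young, 55.1, 51.7 and 53.1 CPM in aged, and 49.5, 48.6, 50.2 and 55.7 CPM in spermidine libraries. It varied least of the 7 tested members, and young lay just above both other groups, which overlapped each other. The differences were small: aged minus young was -0.16 (SE 0.12, edgeR adjusted p = 0.373), spermidine minus aged -0.06 (SE 0.12, 0.773) and spermidine minus young -0.22 (SE 0.11, 0.309). With correction for transcript length and GC content, aged minus young became -0.75 (edgeR adjusted p = 0.00581), and it was -0.59 (0.0142) when the median transcript length was used.

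Adcy3 (Gene ID 104111), the cyclase linked to arrest in rodent oocytes, had 5, 8 and 4 counts in young, 8, 5 and 6 in aged, and 6, 2, 6 and 8 in spermidine libraries. The groups overlapped in every pair, and the gene was left out by the filter. With no filter, aged minus young was -0.03 (SE 0.58), spermidine minus aged -0.18 (SE 0.54) and spermidine minus young -0.21 (SE 0.55), with edgeR adjusted p-values of 0.894 to 1. Differences of the size seen for Gpr3 lie within about 2 of these SEs and were not detectable at this depth.

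Pde3a (Gene ID 54611), the phosphodiesterase that lowers oocyte cAMP at release from arrest, differed more between replicates than between groups. Its level was 32.0, 27.6 and 37.5 CPM in young, 66.2, 26.6 and 31.9 CPM in aged, and 59.3, 39.2, 27.9 and 28.3 CPM in spermidine libraries. Aged replicate 1 and spermidine replicate 1 stood above all other libraries, and without them the groups overlapped throughout. Those were also the libraries with the highest positive correlation to transcript length, and the Pde3a transcript, at 12302 bases, is the longest of the set. Whether that trend bears on the Pde3a values was not tested. The difference of aged minus young was 0.36 (SE 0.35, edgeR adjusted p = 0.475), and it turned to -0.19 without aged replicate 1 (0.674). Spermidine minus aged was -0.10 (SE 0.32, edgeR adjusted p = 0.872) and turned to 0.40 without aged replicate 1.

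Wee2 (Gene ID 381759) encodes the oocyte-specific kinase that keeps CDK1 inhibited. Its level was 590.3, 569 and 614 CPM in young, 619, 957 and 805 CPM in aged, and 328, 370.2, 541 and 637 CPM in spermidine libraries. Aged libraries lay above young, aged replicate 1 by little, and the spermidine libraries ran from far below young to just above it. Wee2 differed by 0.43 in aged minus young (SE 0.24, edgeR adjusted p = 0.219) and by -0.76 in spermidine minus aged (SE 0.22, edgeR adjusted p = 0.0649), neither past the threshold. Under 8 of 22 alternatives the second difference did pass, among them without aged replicate 1 (-0.91, edgeR adjusted p = 0.0408), without spermidine replicate 4 (-0.94, 0.0218) and with DESeq2 (-0.77, adjusted p = 0.0196). In the authors' deposited table it stands at -0.77 with q = 0.0824.

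Pkmyt1 (Gene ID 268930), whose kinase can phosphorylate both capitalised codons' residues, was low. Its level was 3.41, 6.10 and 2.89 CPM in young, 4.54, 8.34 and 8.62 CPM in aged, and 5.32, 3.81, 4.62 and 7.36 CPM in spermidine libraries. Every pair of groups overlapped, with young replicate 2 above aged replicate 1. Aged minus young was 0.78 (SE 0.34, edgeR adjusted p = 0.123), spermidine minus aged -0.44 (SE 0.31, 0.412) and spermidine minus young 0.34 (SE 0.32, 0.592). The first of these passed the threshold when young replicate 2 was left out (1.19, edgeR adjusted p = 0.0481) or aged replicate 1 was (0.99, 0.0460).

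Cdc25b (Gene ID 12531) encodes the phosphatase that removes these phosphates and whose loss in mice leaves oocytes in arrest. Its level was 6.68, 7.86 and 8.45 CPM in young, 15.4, 13.5 and 14.1 CPM in aged, and 13.0, 8.59, 9.64 and 11.8 CPM in spermidine libraries. The 3 groups did not overlap in any pair, with spermidine between young and aged. Cdc25b rose by 0.90 in aged minus young (SE 0.19, edgeR adjusted p = 0.00924). Spermidine minus aged, -0.41 (SE 0.17, edgeR adjusted p = 0.174), and spermidine minus young, 0.49 (SE 0.18, 0.145), did not pass. The rise in aged was lost without young replicate 1 (0.78, edgeR adjusted p = 0.0549), and was smaller, 0.59, with the length and GC correction on the median transcript (0.0373).

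Gpr3 and Cdc25b were the members that rose with age, and their promoters are printed for that reason. For 6 of the 9 members the promoter sequence was taken from RefSeq (GRCm38.p6); those of Pde3a, Pkmyt1 and Mos were not used here. The 250 bases before the annotated start are given, 5′ to 3′ on the strand of the gene, for Gpr3 at chr4:133212537-133212786 (minus strand) and Cdc25b at chr2:131186698-131186947 (plus strand). For both genes the bases just after this start were not found in the GENCODE principal transcript. The windows therefore need not lie at the start of that transcript. Capitals mark the GC box GGGCGG, the CCAAT box CCAAT and the CRE core TGACG, each searched on both strands and with overlaps counted.
Gpr3: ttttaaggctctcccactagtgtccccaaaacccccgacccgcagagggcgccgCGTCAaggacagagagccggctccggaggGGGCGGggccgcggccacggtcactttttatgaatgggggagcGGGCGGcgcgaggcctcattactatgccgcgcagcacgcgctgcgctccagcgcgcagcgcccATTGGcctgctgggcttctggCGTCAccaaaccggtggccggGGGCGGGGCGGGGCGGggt
Cdc25b: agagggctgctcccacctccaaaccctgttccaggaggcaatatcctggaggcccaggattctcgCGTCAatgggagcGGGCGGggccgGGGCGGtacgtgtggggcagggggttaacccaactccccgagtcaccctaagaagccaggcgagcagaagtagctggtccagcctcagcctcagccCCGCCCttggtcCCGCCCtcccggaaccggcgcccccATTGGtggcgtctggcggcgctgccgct

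The Gpr3 window held 5 GC boxes, 1 CCAAT box and 2 CRE cores, and the Cdc25b window held 4, 1 and 1. Over the 32851 mouse promoter windows of the same length, 32.7% held a GC box, 33.8% a CCAAT box and 17.8% a CRE core. Neither window held the TATA box TATAAA, found in 12.4% of windows. A match describes the letters of the window and was not tested as a binding site.

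Wee2 and Cdc25b act in opposite directions on CDK1, so their ratio was also computed in each library from the values per length. It was 94.6, 77.4 and 77.8 in young, 43.0, 76.2 and 61.4 in aged, and 26.9, 46.2, 60.1 and 57.7 in spermidine libraries. Every young library lay above every aged and spermidine library, and aged and spermidine overlapped. The separation was narrow, with young replicate 2 at 77.4 and aged replicate 2 at 76.2. The share of other gene pairs that separate the groups in this way was not computed. The ratio was not tested. It does not depend on how libraries are scaled, but no correction for length and GC content was applied to it.

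Mos (Gene ID 17451), the kinase gene translated when meiosis resumes, was the most abundant member per length of transcript in every library. Its level was 903, 869.9 and 904 CPM in young, 758, 1314.5 and 1037 CPM in aged, and 518, 664, 823 and 935 CPM in spermidine libraries. The young libraries lay close together and inside the range of both other groups, which spread widely. For Mos, aged minus young was 0.22 (SE 0.23, edgeR adjusted p = 0.513), spermidine minus aged -0.50 (SE 0.21, 0.174) and spermidine minus young -0.28 (SE 0.21, 0.496). Leaving out aged replicate 2 or any other single library did not bring a call for Mos.

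**Figure D2:**
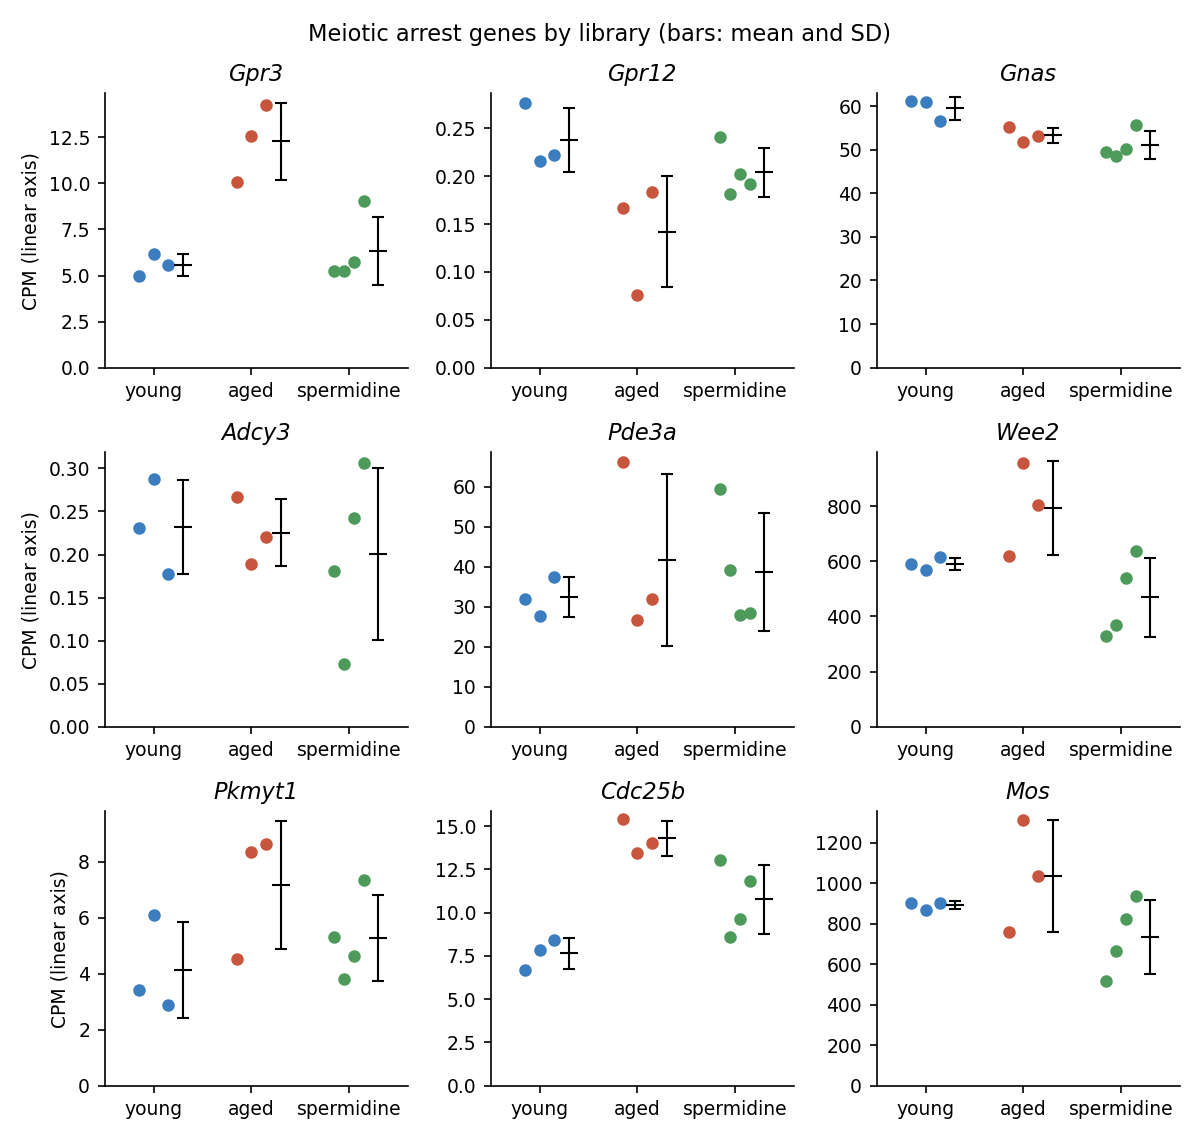
CPM of the 9 meiotic arrest genes in each library, with points for the 3 young, 3 aged and 4 spermidine libraries and bars for the group mean and SD. The aged points of Gpr3 (10.1 to 14.2 CPM) and Cdc25b (13.5 to 15.4 CPM) lie above all young and spermidine points, while Pde3a is high in 1 aged and 1 spermidine library.

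Of the 7 members tested in aged minus young, edgeR called 2 higher and 0 lower, against 9.71% of all genes called higher and 8.06% lower. At an unadjusted p below 0.05, 3 members were higher and 0 lower, against 19.4% and 15.3% of all genes, and DESeq2 called 2 higher and 0 lower (21.4% of all genes in either direction). For spermidine minus aged edgeR called 0 higher and 1 lower, against 2.42% and 2.44% of all genes. At an unadjusted p below 0.05, 0 members were higher and 4 lower (Gpr3, Wee2, Cdc25b and Mos), against 12.0% and 12.3% of all genes, and DESeq2 called 0 higher and 2 lower (11.6% of all genes). For spermidine minus young edgeR called 0 members in either direction, against 5.36% of all genes (3.44% higher and 1.92% lower). At an unadjusted p below 0.05 there was 1 higher, Cdc25b, and 0 lower, against 11.9% and 8.10% of all genes, and DESeq2 called 0 members (8.21% of all genes). With so few members, counts of 1 or 2 say little about the set.

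Median differences of the 7 tested members were 0.43, -0.44 and 0.18 in the 3 comparisons, in that order, against 0.10, -0.03 and 0.04 over all genes. The third did not keep its sign: it was -0.04 with a replicate block or without aged replicate 1 and spermidine replicate 1, -0.07 without spermidine replicate 1 and -0.05 without spermidine replicate 4. Over all 9 members it was -0.19 with no filter and -0.26 with DESeq2. Scaling by total counts moved the median of all genes to 0.24 in aged minus young and to 0.23 in spermidine minus young. It also moved the split of calls over all genes from 1196 higher and 993 lower to 1236 and 405 in the first, and from 424 and 236 to 605 and 126 in the second. Groups did not overlap for 4 of the 7 members in aged minus young (Gpr3, Gnas, Wee2 and Cdc25b), where 40.0% of all genes did not overlap. The same held for 2 in spermidine minus aged (Gpr3 and Cdc25b), against 19.9%, and for 2 in spermidine minus young (Gnas and Cdc25b), against 21.0%.

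**Figure D3:**
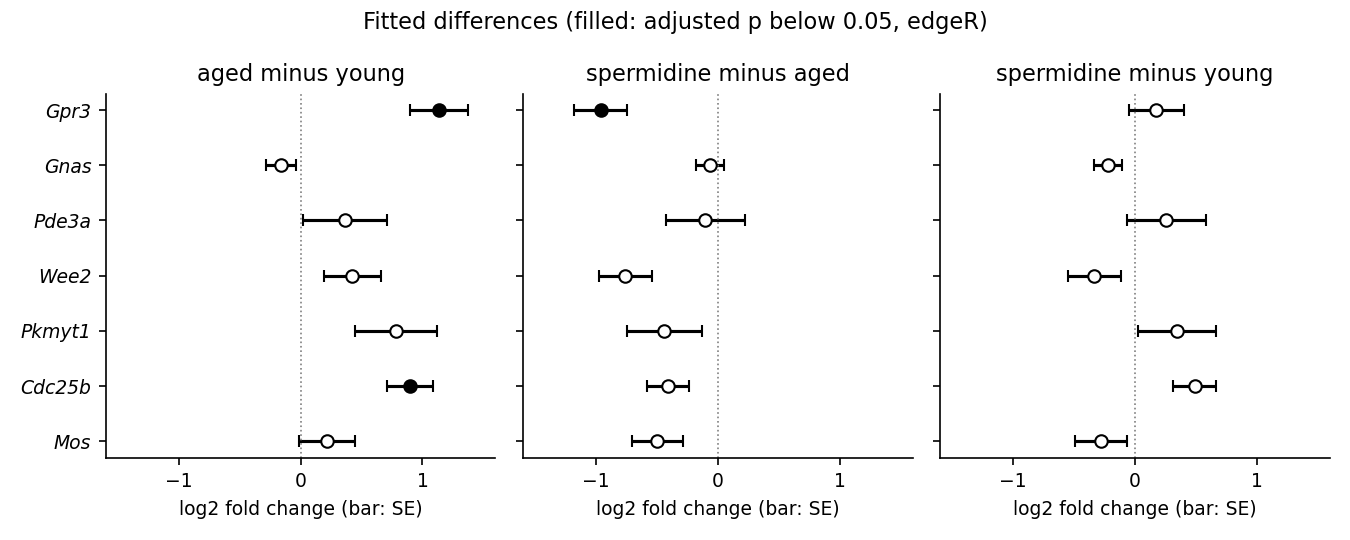
Log2 differences of the 7 tested members in the 3 comparisons, with the SE as a bar and filled points where the edgeR adjusted p was below 0.05. The filled points are Gpr3 (1.14) and Cdc25b (0.90) for aged minus young and Gpr3 (-0.96) for spermidine minus aged.

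Neither Cdk1 nor Ccnb1, the complex these enzymes act on, was called in any comparison. Cdk1 stood at 113 ± 4.25 CPM in young, 98.3 ± 4.62 in aged and 109.8 ± 13.9 in spermidine libraries, and Ccnb1 at 2408 ± 88.2, 2353 ± 467 and 2040 (2039.6) ± 500.1 CPM (SD, n = 3, 3 and 4). Cdk1 differed by -0.20 in aged minus young (SE 0.14, edgeR adjusted p = 0.316) and Ccnb1 by -0.03 (SE 0.21, 0.924). Spermidine minus aged was 0.16 for Cdk1 (SE 0.13, edgeR adjusted p = 0.472) and -0.21 for Ccnb1 (SE 0.20, 0.549). No alternative brought a call for either gene, and the sign for Ccnb1 in aged minus young turned under 7 of 22.

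Among the other genes of the pathway, 111 in 7 lists arranged by role, 98 were tested. In aged minus young 6 rose and 5 fell, a share below the 17.8% called among all genes, and the median was 0.10, as over all genes. With total count scaling 7 rose and 0 fell. In spermidine minus aged 1 rose and 2 fell, against 4.86% of all genes, and in spermidine minus young 4 rose and 0 fell, against 3.44% and 1.92% of all genes, where DESeq2 called 1 lower. The calls were spread over the cAMP side (cyclases, phosphodiesterases and protein kinase A), the CDK1 side and the anaphase promoting complex. No call came among the 6 tested genes of the Mos and MAP kinase list or the 10 of the Greatwall and PP2A-B55 list. Of the latter, the phosphatase PP2A-B55 is the counterweight of CDK1. With so few genes per list, calls or their absence say little about a list.

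Of 14 tested receptors, cyclases and Gi subunits, 1 rose with age and 0 fell, against 9.71% and 8.06% of all genes. Adcy1, a cyclase stimulated by calcium and calmodulin, went from 0.649 ± 0.196 CPM in young to 2.30 ± 0.751 in aged (SD, n = 3 each; log2 1.83, SE 0.32, edgeR adjusted p = 0.00386). It stood at 1.49 ± 0.210 CPM with spermidine (n = 4), 1.20 above young (SE 0.31, edgeR adjusted p = 0.0442). The aged call held without any single library. The spermidine call was lost for 8 of the 10 libraries left out, all except aged replicates 1 and 3, with adjusted p-values up to 0.196, and under 4 of 11 other settings (up to 0.0731).

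Of 15 tested phosphodiesterases and cGMP genes, 3 rose and 1 fell in aged minus young, against 9.71% and 8.06% of all genes. Pde10a, which degrades both cAMP and cGMP, went from 1.21 ± 0.334 CPM in young to 5.71 ± 2.55 in aged (log2 2.23, SE 0.36, edgeR adjusted p = 0.00245), a call that held without any single library. It stood at 2.99 ± 0.816 CPM with spermidine, 1.30 above young (SE 0.35, edgeR adjusted p = 0.0499). That second call was lost for 8 of 10 libraries left out, all except aged replicates 1 and 3, with adjusted p-values up to 0.222, and under 3 of 11 other settings (up to 0.0850). The calmodulin-dependent Pde1b rose from 4.66 to 9.13 CPM (log2 0.97, SE 0.20, edgeR adjusted p = 0.00877, and 0.0558 without young replicate 1). Its relative Pde1a rose by 0.85 (SE 0.26, edgeR adjusted p = 0.0412), lost without young replicates 1 or 3, aged replicates 1 or 2 or spermidine replicate 2 (up to 0.183) and under 4 of 11 other settings (up to 0.104). Pde7b, a cAMP-specific enzyme, fell by 2.00 from 0.546 CPM (SE 0.63, edgeR adjusted p = 0.0452). Its counts were only 10, 8 and 20 in young, 6, 3 and 2 in aged, and 15, 8, 3 and 4 in spermidine libraries. It passed the filter on low counts with the help of the young group, where it was high, so its call carries little weight. That call was lost without young replicates 1 or 3, aged replicates 2 or 3 or spermidine replicate 2 (up to 0.173) and under 4 of 10 other settings (up to 0.0822).

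Of 10 tested protein kinase A genes, 1 rose with age, against 9.71% of all genes, and fell with spermidine, against 2.44%. Prkaca, the catalytic subunit alpha, stood at 2.21, 2.08 and 1.96 CPM in young, 3.47, 3.45 and 3.52 CPM in aged, and 2.23, 1.96, 2.43 and 2.19 CPM in spermidine libraries. The aged libraries stood apart from all others. Aged minus young was 0.74 (SE 0.18, edgeR adjusted p = 0.0172) and spermidine minus aged -0.66 (SE 0.17, edgeR adjusted p = 0.0435). The first call was lost without young replicate 1 (0.0630) or 3 (0.0868), and the second without any library other than spermidine replicate 4, with adjusted p-values up to 0.138. With the length and GC correction they were 0.57 (edgeR adjusted p = 0.0814) and -0.52 (0.113). The second was lost under 8 of 11 settings other than a library left out, among them total count scaling (0.0974) and the replicate block (0.0729), and was -0.43 (0.167) with the block and the correction. Pkib, an inhibitor of protein kinase A, rose from 3.57 ± 0.530 CPM in young to 7.21 ± 1.20 with spermidine (log2 1.01, SE 0.23, edgeR adjusted p = 0.0260), lost without any 1 of the 3 young libraries or spermidine replicates 2 or 3 (up to 0.152), or with the length and GC correction (0.0716).

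Of 23 tested genes of CDK1, its cyclins, kinases and phosphatases, 1 rose and 3 fell with age, against 9.71% and 8.06% of all genes. Wee1, the relative of Wee2 used in somatic cells, stood at 3.23, 2.48 and 3.91 CPM in young, 9.81, 6.86 and 6.97 CPM in aged, and 10.1, 9.50, 6.68 and 11.7 CPM in spermidine libraries. Every aged and spermidine library lay above every young one. Aged minus young was 1.30 (SE 0.26, edgeR adjusted p = 0.00658) and spermidine minus young 1.57 (SE 0.25, edgeR adjusted p = 0.00264), and neither call was lost without any single library. Mnat1 and Ccnh, which with CDK7 form the CDK-activating kinase, fell by 0.67 (SE 0.15, edgeR adjusted p = 0.0112) and 0.48 (SE 0.15, 0.0397). Cks1b, a small CDK-binding subunit, fell by 0.39 (SE 0.12, 0.0487) and stood at 0.0007 after correction for length and GC content and at -0.24 (0.224) with total count scaling. The call for Mnat1 was lost with total count scaling (0.0701). That for Ccnh was lost without young replicates 1 or 3, any aged replicate or spermidine replicate 3 (up to 0.125), and its difference was -0.24 (0.210) with the correction and -0.34 (0.158) with total count scaling. The call for Cks1b was lost without any young or aged replicate or spermidine replicate 3 (up to 0.134) and under 8 of 12 other settings.

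Bora, the cofactor through which Aurora A activates the kinase PLK1, fell with spermidine from 57.6 ± 10.6 to 31.6 ± 6.32 CPM (log2 -0.87, SE 0.18, edgeR adjusted p = 0.0232). The call was lost without aged replicate 2 (0.0950), aged replicate 3 (0.0691) or spermidine replicate 2 (0.0502), and with only the 2 groups compared (0.0712). Of 20 tested genes of the anaphase promoting complex, the ubiquitin ligase that destroys cyclin B, Anapc13 was called in both comparisons. Among all genes, 8.06% were called lower with age and 2.42% higher with spermidine. Anapc13 stood at 7.46 ± 0.359 CPM in young, 4.52 ± 0.504 in aged and 7.67 ± 1.33 with spermidine. It fell by 0.72 with age (SE 0.19, edgeR adjusted p = 0.0253) and rose by 0.76 with spermidine (SE 0.18, edgeR adjusted p = 0.0388). The first call was lost without young replicates 1 or 2 or aged replicates 2 or 3 (up to 0.0779). It was also lost with total count scaling (-0.57, 0.111), with the correction (-0.53, 0.0650) and with the correction on median transcripts (-0.32, 0.160). The second was lost for 8 of 10 libraries left out, all except aged replicate 1 and spermidine replicate 4 (up to 0.140), and under 5 of 11 other settings, at 0.46 (0.0704) with the correction on median transcripts.

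**Figure D4:**
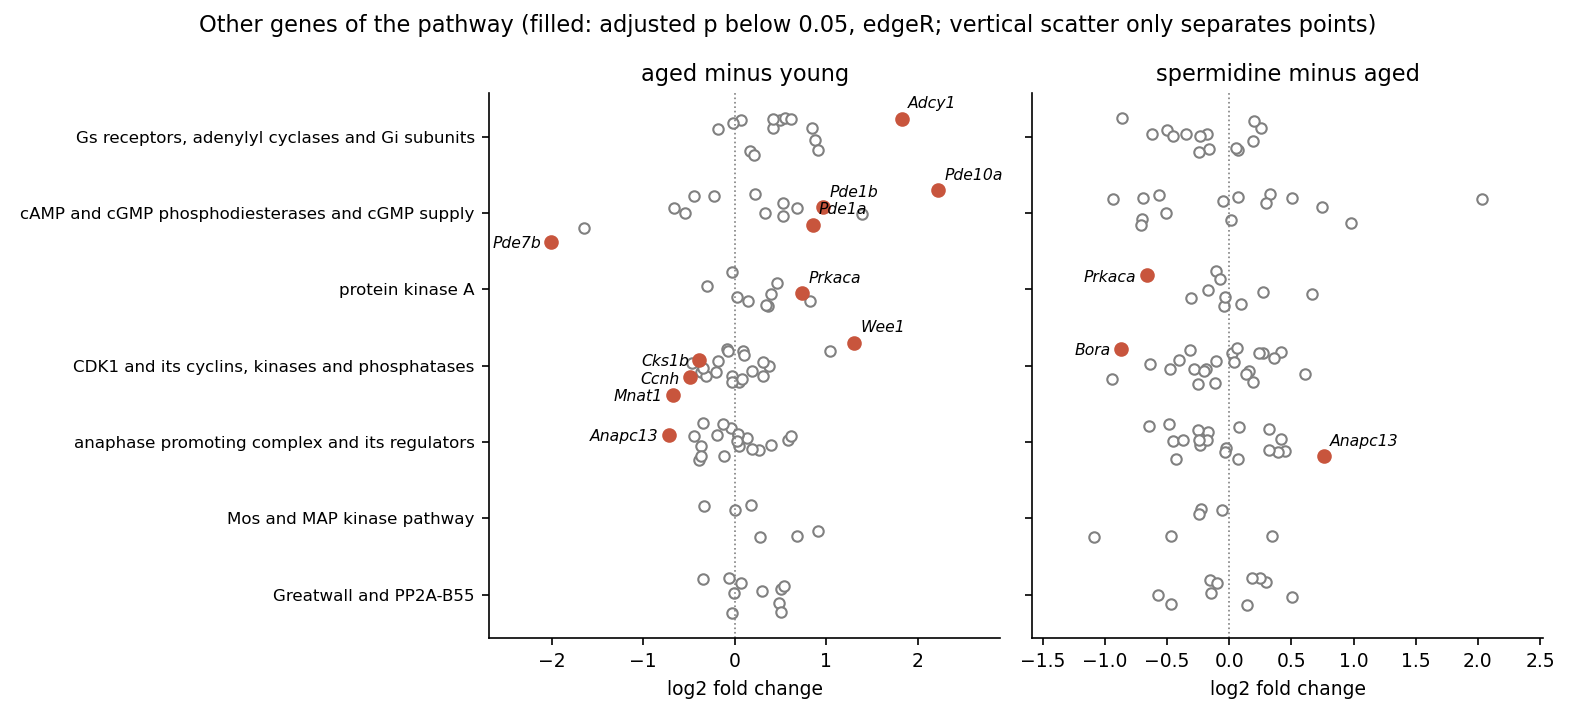
Log2 differences of the 98 tested pathway genes by list, for aged minus young and spermidine minus aged, with filled and named points where the edgeR adjusted p was below 0.05. The largest called differences with age are Pde10a (2.23), Pde7b (-2.00, from 2 to 20 counts in a library), Adcy1 (1.83) and Wee1 (1.30). The Mos and Greatwall lists hold open points only.

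Across the 10 libraries, each member's log2 CPM, centred on its own mean, was set against 3749 tested genes of at least 20 CPM and against the other members, by the root mean square difference. This is a description, since all points share the same libraries. Wee2 and Mos were closest to each other among members, with a difference of 0.15 where Wee2 itself spread by 0.43 and Mos by 0.34. The gene most like Wee2 was Ctps (0.04) and that most like Mos was Cdca5 (0.07). Gpr3 was closest to Ppme1 (0.13, with its own spread 0.54), Cdc25b to Tbc1d8 (0.12, spread 0.39) and Pkmyt1 to Cdt1 (0.15, spread 0.51). Pde3a was closest to Ice1 (0.08, spread 0.44), and Gnas, which hardly varied (spread 0.11), to Ptprr (0.09). Gpr3 and Cdc25b, which both rose in aged, differed from each other by 0.35.

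**Figure D5:**
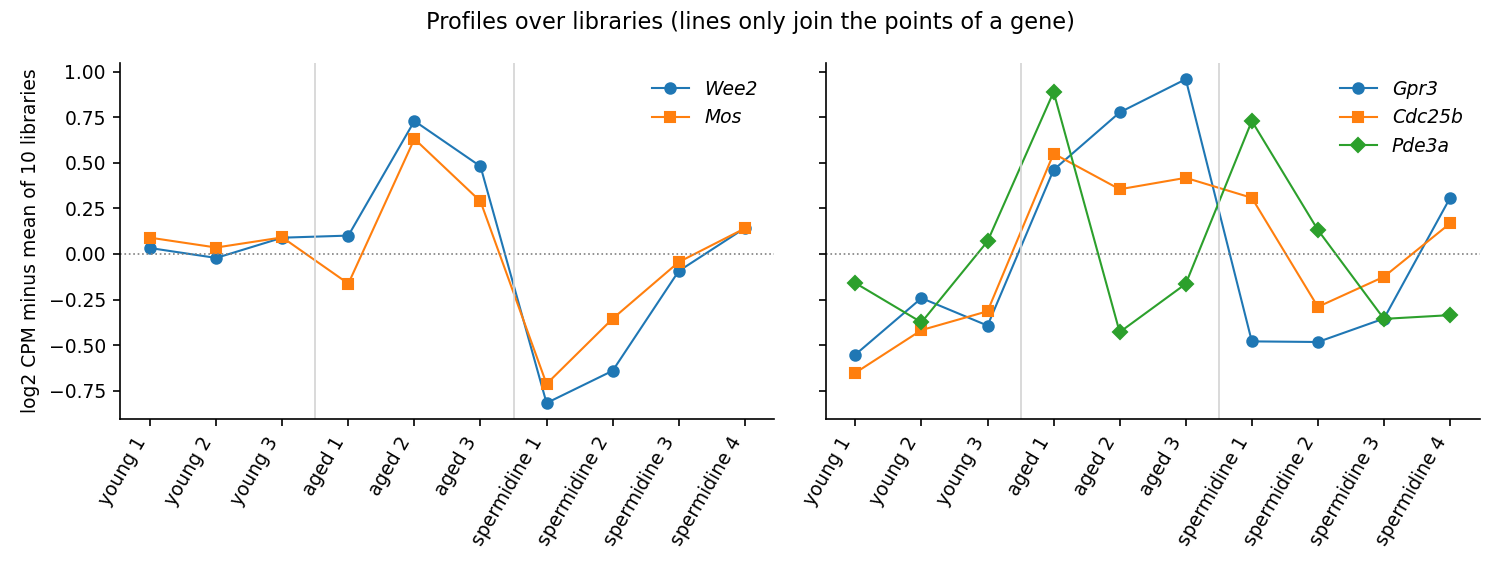
Log2 CPM of 5 members in each of the 10 libraries, minus the gene's mean over them; lines only join the points of a gene. Wee2 and Mos move together and both reach their lowest point in spermidine replicate 1, while Gpr3, Cdc25b and Pde3a follow separate courses, with Pde3a at its highest in aged replicate 1 and spermidine replicate 1.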

How the data were processed

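A single deposited table covers 18493 genes and the 10 libraries. Its values, headed read count per the file headers, are expected counts, of which 15.9% to 16.7% in a library were not whole. The same table holds the authors' log2 fold changes with p-values and q-values. The tools DESeq2 1.4.5, RSEM 1.3.1 and Bowtie2 2.3.4.3 and the mm9 build are listed, without role or order, in the submitters' processing notes. Strand use is not given in the sources used here.

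Counts were rounded, filtered with filterByExpr and scaled by TMM in edgeR 4.0.16 (R 4.3.3). A quasi-likelihood fit with robust dispersion over all 10 libraries and a mean per group tested 12315 genes in 3 comparisons. Adjusted p-values are Benjamini-Hochberg over those genes, with a threshold of 0.05. SEs follow from the F statistic. CPM are relative to the scaled totals. At 24222185 to 28730790 counts per library, depth limits the genes with few counts. The fit was also run on simulated counts with known changes. These were drawn without the length and GC trends of the libraries, so that run does not show how the fit handles them.

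Samples were grouped by title. The members and lists were chosen with earlier results of these data known. Named genes are the members, up to 4 called genes of smallest p per pathway list and comparison, Cdk1, Ccnb1, Gpr6 and the gene most like each member. Alternatives were RLE factors, total count scaling, no filter, 10 CPM in 3 libraries, DESeq2 1.42.0, only 2 groups, a replicate block, no robust fit, length and GC correction (GENCODE M21, 97.4% of tested genes) and libraries left out. The correction on median transcript lengths was added after seeing the data. Promoters are RefSeq's for GRCm38.p6, which is not the authors' build.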

Additional observations from a re-analysis of the deposited data

Results flagged for a closer look

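Gpr3 in spermidine replicate 4 was 9.05 CPM, far from the other 3 spermidine libraries, which lay between 5.22 and 5.71 CPM. Its gap to the nearest of them took 0.87 of the group's range, above Dixon's critical value for 4 libraries. Without it, Gpr3 was -1.19 in spermidine minus aged (edgeR adjusted p = 0.00661) and -0.05 in spermidine minus young. It was the only one found among 24 groups of 4 libraries checked, and chance gives about 1 in 20. Spermidine replicate 4 was also the highest spermidine library for Gnas (55.7 CPM), Wee2 (637 CPM), Pkmyt1 (7.36 CPM) and Mos (935 CPM). For Pde3a and Cdc25b the highest was spermidine replicate 1.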

How the results depend on the processing

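Gpr3 (aged minus young) kept its call under 21 of 22 alternatives and Cdc25b under 21 of 22, both losing it without young replicate 1. Alternatives that leave out a spermidine library keep all the aged and young libraries, so they say less about these calls. Gpr3 in spermidine minus aged kept its call under 13 of 22. Genes called in aged minus young (2189) became 1179 with the filter of 10 CPM and 827 to 2362 with a library left out. In spermidine minus aged (598) they became 259 with total count scaling, 1355 with DESeq2, 124 with only the 2 groups compared, and 99 to 1127 with a library left out. In spermidine minus young (660) they became 273 with the filter of 10 CPM, 1073 with DESeq2 and 283 to 874 with a library left out. Members called in aged minus young (2) were 0 to 3 with a library left out. For spermidine minus aged (1) they were 2 with DESeq2, 0 with only 2 groups, 2 with length and GC correction, 2 with aged replicate 1 left out alongside spermidine replicate 1, and 0 to 2 with a library left out. Pathway genes called in aged minus young (11) were 7 with total count scaling, 7 with no filter, 4 with the filter of 10 CPM and 4 to 14 with a library left out. For spermidine minus aged (3) they were 1 with total count scaling, 1 with no filter, 11 with DESeq2, 0 with only 2 groups and 0 to 13 with a library left out. In spermidine minus young (4) they were 2 with RLE factors, 1 with the filter of 10 CPM and 1 to 5 with a library left out. The causes were not tested.

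The replicate numbers share only a number: over 9 same-number pairs, deviations from the group means correlated at -0.28 to 0.41, and 3 of 10 libraries correlated best with their own number. With the replicate block, genes called in spermidine minus aged were 998 and members called 2 (Gpr3 and Wee2), and pathway genes called 9. With the replicate block and the length and GC correction they were 1177, 3 (Mos added, -0.70, adjusted p = 0.0225) and 13, and 996 genes were called in spermidine minus young. The block moved Pde3a in spermidine minus aged to 0.068 and Gpr3 in spermidine minus young to -0.0439. With the block and the correction, in aged minus young Cks1b was 0.0009 and Ccnb1 0.0013, and in spermidine minus aged Gnas was 0.30 and Pde3a 0.0946.

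The sign also turned for uncalled or weakly called genes. In aged minus young with a library left out, Pde3a was -0.19 to 0.60 and Ccnb1 -0.17 to 0.0666, the turned sign coming without aged replicate 1. Pde3a was also -0.19 without aged replicate 1 and spermidine replicate 1 (called both from here on). Cks1b was 0.0007 with the length and GC correction. Ccnb1 was 0.0961 with total count scaling, 0.0157 with the filter of 10 CPM, 0.0206 with the correction, 0.0475 on median transcripts and 0.0598 without both. In spermidine minus aged, Gnas was 0.27 with the correction, 0.195 on median transcripts and 0.0049 without both. Pde3a there was 0.0247 with the correction, 0.0433 on median transcripts, 0.15 without both, and -0.39 to 0.40 with a library left out, turned without aged replicate 1 or spermidine replicates 3 or 4. In spermidine minus young, Gpr3 was -0.0501 (without spermidine replicate 4) to 0.26 with a library left out, and Pde3a -0.0661 (without spermidine replicate 1) to 0.39, and -0.0413 without both. Cdk1 there was 0.13 with total count scaling, 0.0267 with the filter of 10 CPM and 0.0159 without both. Depth limits Gpr12, Adcy3 and Gpr6, which had at most 8 counts in a library, and also Pde7b, which had 2 to 20.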

Other observations

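The deposited table annotates 112 genes with the KEGG term for oocyte meiosis, of which 99 were tested and 3 are members (Adcy3, Pkmyt1 and Mos). They were counted after seeing the data. In aged minus young edgeR called 11 higher and 5 lower, with a median log2 difference of 0.22, against 17.8% of all genes called and a median of 0.10. In spermidine minus aged it called 1 higher and 5 lower, with a median of -0.18, against 4.86% and -0.03 over all genes. In spermidine minus young it called 1 higher and 1 lower, with a median of 0.02, against 5.36% and 0.04.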
